A study of Homo sapiens with 16 samples.

Results

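The 8 genes described here are the teneurins TENM1, TENM2, TENM3 and TENM4, the neuronal pentraxins NPTX1 and NPTX2, the neuronal pentraxin receptor NPTXR, and RELN, which encodes reelin. They were taken by symbol from a table of 39007 genes. The families were chosen by the levels of NPTX1 and TENM2 at late phase P15, where both were among the largest rises. RNA was sequenced from the T24 bladder cancer cell line (parental phase P0) and from the GRC1 cell line derived from it at the early (P3), intermediate (P7) and late (P15) phases of selection, with 4 libraries per phase. T24 is an established human line, and each phase of GRC1 was made by exposing the surviving cells of the phase before to gemcitabine, a nucleoside analogue used as chemotherapy, and letting them regrow. All cells were grown in DMEM with serum and antibiotics. The titles of all 16 libraries carry the letters NT, which are not explained. Whether gemcitabine was present when RNA was taken is not given in the sources used here. GRC1 is 1 selected line with 1 course of selection, so a value that differs between phases belongs to that line, and nothing in the labels says that the 4 libraries of a phase came from separate cultures. The p-values below therefore measure the spread between these libraries, which may be technical.

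Teneurins are large transmembrane proteins that bind across the cell contact to each other, to latrophilins (the adhesion receptors ADGRL1, ADGRL2 and ADGRL3) and, together with these, to FLRT proteins, and they are known for matching synaptic partners in the brain. Neuronal pentraxins are secreted or membrane-bound proteins that cluster AMPA-type glutamate receptors at synapses, and NPTXR is the membrane-anchored member that assembles with NPTX1 and NPTX2. Reelin is a large secreted glycoprotein that guides neuron migration by binding the lipoprotein receptors LRP8 and VLDLR, which act through the adaptor DAB1. None of these genes is a known marker of the urothelium, the lining of the bladder.

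Sequence is shown for the genes whose levels changed most or that were never detected, as the 250 bases before an annotated start. The sequences are from RefSeq on GRCh38.p14, read 5′ to 3′ on the strand of the gene, and capitals mark CpG dinucleotides, the sites of DNA methylation. RefSeq entries were matched for 6 of the 8 genes, and NPTX1 and NPTXR are named only. The window of RELN is chr7:103989659-103989908 (minus strand), that of TENM4 chr11:79441031-79441280 (minus strand) and that of NPTX2 chr7:98617035-98617284 (plus strand). The windows before the matched TENM2 starts are chr5:167072992-167073241 and chr5:167754679-167754928 (plus strand). In GENCODE the TENM2 gene begins at lower coordinates (166979029), which neither window covers, so neither is shown to be its promoter.
RELN: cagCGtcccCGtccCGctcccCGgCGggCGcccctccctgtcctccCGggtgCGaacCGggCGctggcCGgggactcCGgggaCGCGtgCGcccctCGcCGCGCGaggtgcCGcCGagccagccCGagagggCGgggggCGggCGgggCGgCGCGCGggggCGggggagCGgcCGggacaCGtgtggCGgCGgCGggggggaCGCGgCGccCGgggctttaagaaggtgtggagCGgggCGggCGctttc
TENM4: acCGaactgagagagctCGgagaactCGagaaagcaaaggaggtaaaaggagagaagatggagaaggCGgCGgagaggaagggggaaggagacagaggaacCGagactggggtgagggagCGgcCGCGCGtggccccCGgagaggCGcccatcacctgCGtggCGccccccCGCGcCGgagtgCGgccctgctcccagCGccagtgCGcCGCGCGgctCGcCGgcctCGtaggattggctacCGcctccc
NPTX2: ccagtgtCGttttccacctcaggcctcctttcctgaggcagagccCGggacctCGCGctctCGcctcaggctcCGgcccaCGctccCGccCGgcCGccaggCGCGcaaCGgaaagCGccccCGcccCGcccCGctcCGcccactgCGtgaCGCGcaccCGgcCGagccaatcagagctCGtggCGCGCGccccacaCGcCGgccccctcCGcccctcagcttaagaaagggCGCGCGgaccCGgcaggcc
TENM2 (lower coordinates): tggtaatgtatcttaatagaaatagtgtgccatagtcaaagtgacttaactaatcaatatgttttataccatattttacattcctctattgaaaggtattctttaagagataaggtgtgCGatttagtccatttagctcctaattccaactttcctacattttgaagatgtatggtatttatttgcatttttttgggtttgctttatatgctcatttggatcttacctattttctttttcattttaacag
TENM2 (higher coordinates): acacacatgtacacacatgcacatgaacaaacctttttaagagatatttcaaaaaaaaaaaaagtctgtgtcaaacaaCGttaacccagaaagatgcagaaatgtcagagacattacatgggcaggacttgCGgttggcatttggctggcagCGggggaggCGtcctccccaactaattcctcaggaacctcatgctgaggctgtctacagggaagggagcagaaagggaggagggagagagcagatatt

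The window before RELN held 43 CpG dinucleotides and 83.2% G or C, and 99.0% of the 35116 promoter windows of the same length held fewer CpG. The window before NPTX2 held 34 CpG (93.2% of windows with fewer) and that before TENM4 held 27 (82.3% with fewer). The windows before TENM2 held 1 and 4 CpG, with 6.1% and 29.3% of windows holding fewer. TENM3 has windows with 20 and 35 CpG and TENM1 windows with 8 and 1, against a median of 11 over all windows. The TENM3 window with 35 CpG and the TENM1 window with 1 lie inside the annotated genes, so neither is shown to be a promoter. RELN and TENM4, which were close to 0 at P15, thus have CpG-rich windows. TENM3, which rose at P15, and NPTX2, which was never detected, also have CpG-rich ones. The windows examined for TENM2, which was highest at P15, are CpG-poor, but they do not cover the start of the annotated gene. The letters GGGCGG, on either strand, occurred 6 times before RELN, 5 times before NPTX2 and 1 time in each TENM3 window, and 42.6% of all windows held them. TATAAA occurred 2 times in the TENM2 window at the lower coordinates (10.7% of all windows hold it). CACCTG occurred 1 time before TENM4 (17.5% of all windows), while TGANTCA and TTCAGCACC, held by 6.6% and 0.3% of all windows, were found in none of the 9 windows of these genes. Matches of different letter strings were counted without regard to overlap. These are letter matches, not measured binding, and no methylation was measured in these libraries.

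Values are log2(CPM + 1), where CPM is the count of a gene per 1 M counts of its library. Total counts, inferred from the step between the smallest values of a library, were 33.8 to 50.0 M per library, so that 3 counts correspond to 0.06 to 0.0887 CPM. Each of the 24 pairs of libraries within a phase differed by more than counting noise (2.26 to 6.7 times its variance), and all 16 libraries were used. Of the 15 urothelial markers, 7 had a mean above 1 CPM. The summed level of the 15 in the 4 P15 libraries was 695.0 to 772.9 CPM, against 1774.9 to 1921.6 CPM at P7 and 2177.8 to 2251.7 CPM at P0. The uroplakins UPK1B and UPK3A were at a mean of 0.004 CPM each, and UPK1A, UPK2 and UPK3B at 0.731, 0.63 and 0.349 CPM. Of the 10 markers of blood, endothelial, stromal and other cells, only COL1A1 had a mean above 1 CPM, and their summed level was at most 27.3 CPM in any library. In bulk RNA, fewer cells that use a gene and less RNA of it per cell cannot be told apart.

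NPTX1 and TENM2 were low until P7 and among the most strongly expressed of the 8 genes at P15. NPTXR and RELN went the other way, from the highest levels per length in the first 3 phases to about 1 CPM and about 0 at P15. TENM4 was lost, partly regained and lost again, TENM3 stayed level and then rose, and TENM1 and NPTX2 were at or close to 0 throughout. Averaged over the 16 libraries, 6 of the 8 genes exceeded 1 CPM, the filter for tests. NPTX1 and TENM2 passed that filter only through P15 (means of 0.175 and 0.966 CPM over the 12 libraries before it), so their differences are given throughout as descriptions without a test. TENM1 (mean 0.057 CPM) and NPTX2 (0 CPM) did not pass it.

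**Figure D1:**
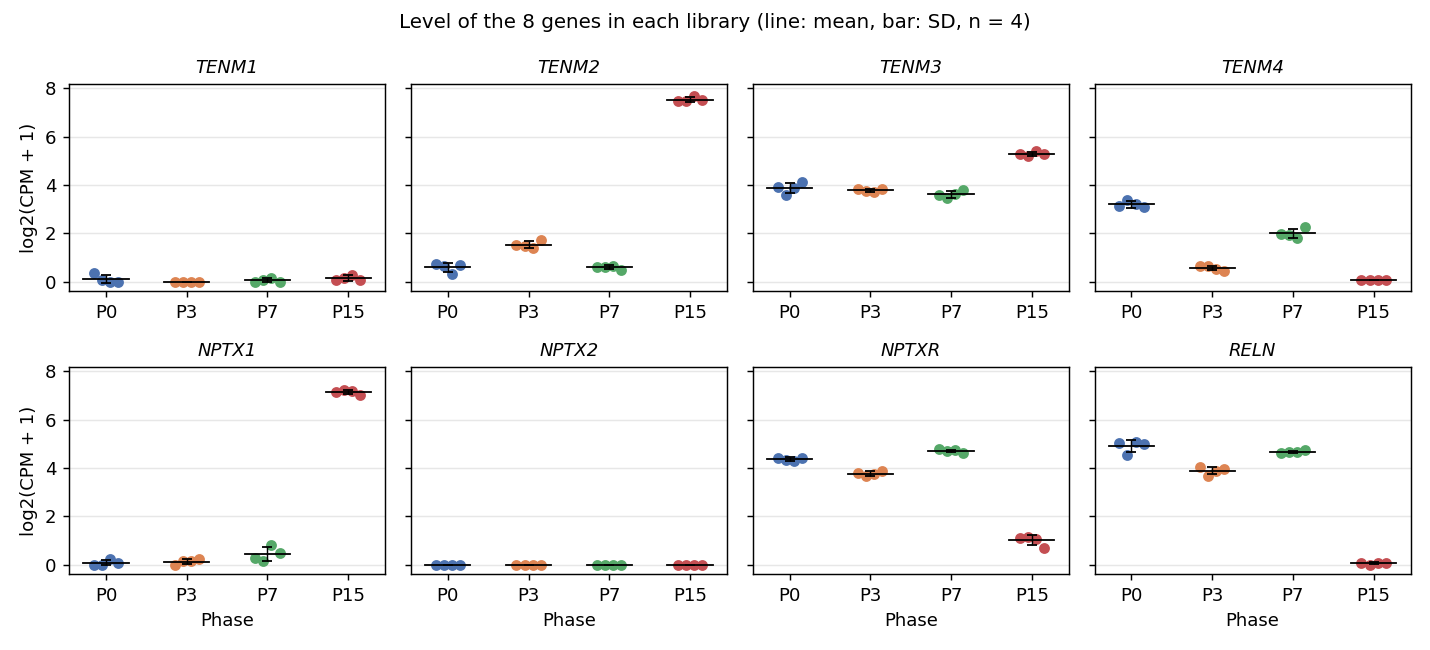
Level of each of the 8 genes, as log2(CPM + 1) on the vertical axis, in the 4 libraries (points) of each phase on the horizontal axis, with the mean as a line and the SD as a bar. NPTX1 and TENM2 stand above 7 at P15 only, RELN and TENM4 are below 0.1 in every P15 library, and NPTX2 is at 0 in all 16 libraries.

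NPTX1 (chr17:80466834-80477843, minus strand) was listed in parental phase P0 at log2 values of 0, 0, 0.23 and 0.08 in replicates 1 to 4, which is 8 estimated counts in all 4 libraries together. At P3 its values were 0, 0.14, 0.13 and 0.24, and at P7 they were 0.28, 0.16, 0.81 and 0.49. At P15 they were 7.17, 7.22, 7.19 and 7.04, a mean of 141.7 CPM. Every P15 library was far above every other library, while the libraries of P0, P3 and P7 overlapped. NPTX1 was chosen for this rise, which was 7.08 ± 0.11 (SE) on the log2 scale between P15 and P0 and 6.72 between P15 and P7. Among the earlier phases, the mean at P7 exceeded that at P3 by 0.31 ± 0.11 and that at P0 by 0.36, at levels below 1 CPM. In counts, the difference between P7 and P3 is 56 against 14, a ratio of 3.78 given as a description, and 26 of the 56 were in replicate 3. Without P7 replicate 3 the log2 difference was 0.18.

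NPTX2 (chr7:98617285-98629869, plus strand), the secreted partner of NPTX1, was listed at 0 in all 16 libraries. At this depth that allows a level of up to 0.0887 CPM per library if counts are independent, and a higher one if both reads of a pair were counted.

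NPTXR (chr22:38818452-38844028, minus strand) had log2 values of 4.43, 4.32, 4.29 and 4.43 at P0, of 3.80, 3.65, 3.75 and 3.88 at P3, and of 4.77, 4.69, 4.74 and 4.64 at P7. Its 4 values at P15 were 1.11, 1.15, 1.08 and 0.70, with replicate 4 the lowest. The groups of libraries of the 4 phases did not overlap. NPTXR was lower at P3 than at P0 by 0.60 ± 0.08 (adjusted p = 8.5e-07) and higher at P7 than at P3 by 0.94 (adjusted p = 1.1e-09), each short of the log2 difference of 1 that a call requires. From P7 to P15 it fell by 3.70 ± 0.08 (adjusted p = 1.8e-22), which in counts is a 24.8-fold lower level (95% interval 21.2 to 29.1). The receptor was thus lowest in the phase in which NPTX1 was highest.

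RELN (chr7:103471381-103989658, minus strand) was at 5.04, 4.55, 5.06 and 4.98 at P0, with replicate 2 below the others. At P3 it was at 4.06, 3.68, 3.89 and 3.94, and at P7 at 4.64, 4.66, 4.65 and 4.73. In the P15 libraries it was at 0.07, 0, 0.08 and 0.06, which is 6 estimated counts in all. P3 lay below both P0 and P7 in every library, whereas P0 and P7 overlapped. RELN fell from P0 to P3 by 1.01 ± 0.09 (adjusted p = 9.3e-10), a difference just past 1, and leaving out any 1 of P0 replicates 1, 3 and 4 or P3 replicate 2 brought it to between -0.99 and -0.94. Quantile normalization also brought it to -0.94, which is no call. At P7 it was 0.78 above P3 (adjusted p = 1.5e-07), below the fold threshold, and 0.24 below P0 (adjusted p = 0.029), a difference whose adjusted p reached 0.11 with single libraries left out. From P7 to P15 it fell by 4.62 ± 0.09 (adjusted p = 1.9e-23). The counts of 3959 at P7 and 6 at P15 give a ratio of 667 (95% interval 306 to 1819).

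TENM2 (chr5:166979029-168264157, plus strand) had log2 values of 0.71, 0.63, 0.30 and 0.69 at P0 and of 1.5, 1.48, 1.38 and 1.72 at P3. At P7 it was back at 0.61, 0.62, 0.66 and 0.49, and at P15 it stood at 7.48, 7.49, 7.68 and 7.52, a mean of 185.7 CPM. P3 lay above P0 and P7 in every library, and P15 lay far above all of them. The rise at P15, for which this gene was chosen, was 6.96 ± 0.09 (SE) against P0 and 6.95 against P7. The smaller excursion at P3 was 0.94 ± 0.09 above P0 (1.03 after quantile normalization) and was followed by 0.93 lower values at P7. In counts TENM2 was 3.64 times as high at P3 as at P0 (285 against 74), again as a description. Between P7 and P0 the difference was 0.01.

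TENM3 (chr4:182143987-182803024, plus strand) was the only teneurin above 10 CPM in all 16 libraries. Its log2 values were 3.93, 3.60, 3.88 and 4.12 at P0, 3.84, 3.74, 3.73 and 3.85 at P3, 3.58, 3.47, 3.61 and 3.79 at P7, and 5.28, 5.21, 5.39 and 5.27 at P15. The first 3 phases overlapped and P15 lay above them. TENM3 rose from P7 to P15 by 1.68 ± 0.08 (adjusted p = 1.6e-15), which is 3.39-fold in counts. It was 0.09 lower at P3 than at P0 (adjusted p = 0.33), 0.18 lower at P7 than at P3 (adjusted p = 0.07) and 0.27 lower at P7 than at P0 (adjusted p = 0.0068). A pair of annotated antisense RNAs share 115 and 118 exon bases with it, and since the strand setting of the counting is not given in the sources used here, their reads cannot be told apart from its own there.

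TENM4 (chr11:78652829-79441030, minus strand) had log2 values of 3.13, 3.36, 3.21 and 3.07 at P0, which dropped to 0.66, 0.63, 0.52 and 0.44 at P3. At P7 they were 1.97, 1.94, 1.82 and 2.24, and at P15 they were 0.07, 0.07, 0.08 and 0.06, or 2 estimated counts per library. The 4 phases did not overlap. TENM4 fell by 2.63 ± 0.10 from P0 to P3 (adjusted p = 3.5e-17), rose from P3 to P7 by 1.43 (adjusted p = 9.7e-12), and fell from P7 to P15 by 1.92 (adjusted p = 2e-15). At P7 it remained 1.20 below P0 (adjusted p = 1.2e-10). In counts the level at P0 was 16.9 times that at P3 (95% interval 13.3 to 21.7), the level at P7 was 6.22 times that at P3 (4.87 to 8.06) and 61.6 times that at P15 (31.0 to 143), which are larger folds than the log2(CPM + 1) differences because the added 1 compresses low values.

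TENM1 (chrX:124375903-125204312, minus strand) had at most 10 estimated counts in any library. Its counts over the 4 libraries of a phase were 12 at P0, of which 10 were in replicate 1, 0 at P3, 6 at P7 and 17 at P15. No difference is drawn from these levels, which are at or near the floor. TENM1 also shares 241 exon bases with STAG2 on the opposite strand, and STAG2 was at a mean of 250.9 CPM.

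**Figure D2:**
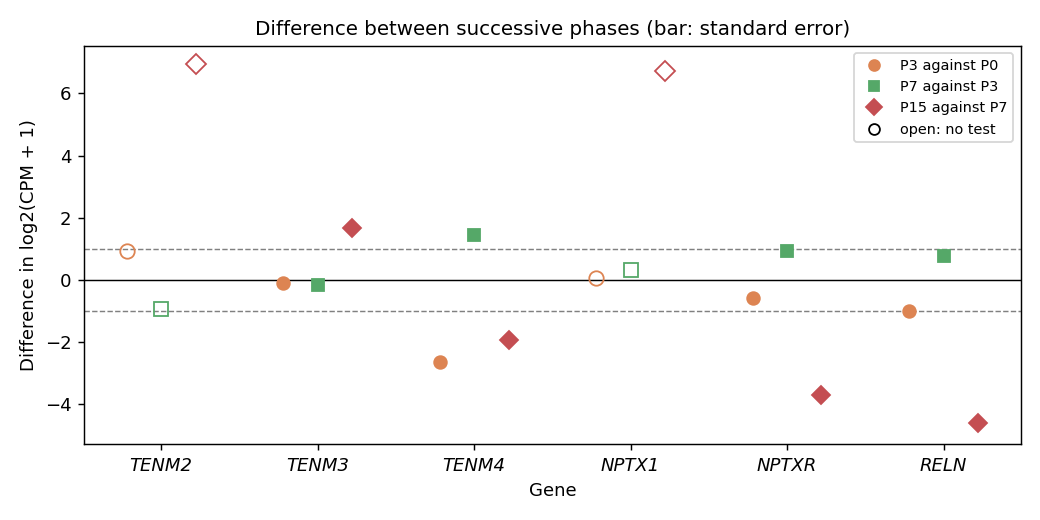
Difference in log2(CPM + 1) between successive phases (vertical axis) for the 6 genes above 1 CPM on average (horizontal axis), with standard errors that are mostly smaller than the symbols and dashed lines at differences of 1 and -1. TENM4 changes by -2.63, 1.43 and -1.92, and the open symbols of TENM2 and NPTX1, with P15 rises of 6.95 and 6.72, carry no test.

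The counts that follow are over the 4 genes that also passed the filter without P15 (RELN, NPTXR, TENM3 and TENM4). For P3 against P0, 2 of the 4 were called (TENM4 and RELN, both lower), where 4.47% of the 13249 tested genes were called (1.95% higher, 2.51% lower). At an adjusted p below 0.05 without a fold threshold, 3 of 4 passed, and 68.7% of all genes did. For P7 against P3, 1 of 4 was called (TENM4, higher), against 1.84% of all genes (0.996% higher), and 3 of 4 passed the adjusted p alone, against 58.2%. For P7 against P0, TENM4 was again the 1 called gene, lower, against 3.37% of all genes (1.86% higher, 1.52% lower), and 4 of 4 passed the adjusted p alone, against 62.1%. These 3 comparisons share libraries, so their values are set side by side only. For P15 against P7, the same 4 genes were all called, 1 higher (TENM3) and 3 lower (RELN, NPTXR and TENM4), and 25.5% of all genes were called (13.4% higher, 12.1% lower, and 86.4% at the adjusted p alone). The P15 libraries are also those on which the families were chosen. Between P15 and P0, the contrast of that choice, the 6 genes differed by at least 1 on the log2 scale, with RELN at -4.86, NPTXR at -3.36, TENM4 at -3.12, TENM3 at 1.41, TENM2 at 6.96 and NPTX1 at 7.08, beside 23.6% of all genes called and 86.2% at an adjusted p below 0.05 alone, and nothing is read from this count.

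Per kilobase of the canonical transcript, NPTXR was the highest of the 8 genes in the first 3 phases, at 3.37 ± 0.179 (SD, n = 4) CPM per kb at P0, 2.17 ± 0.156 at P3 and 4.32 ± 0.177 at P7. RELN came next at 2.50, 1.19 and 2.09 CPM per kb, and then TENM3 at 1.27, 1.18 and 1.03. At P3, RELN and TENM3 overlapped in their libraries, and at P0 and P7 they did not. TENM4 followed at P0 and P7 (0.568 and 0.209 CPM per kb) and TENM2 at P3 (0.181). Below these places, neighbouring genes mostly overlapped near the floor, with TENM2 and NPTX1 overlapping at P0 and P7 and TENM4 and NPTX1 at P3. At P15 the order was NPTX1 (26.0 ± 1.41 CPM per kb), TENM2 (17.9 ± 1.2), TENM3 (3.49 ± 0.188) and NPTXR (0.176 ± 0.0469), each apart from the next, and TENM1, TENM4 and RELN overlapped below 0.02 CPM per kb. The lead of NPTX1 and TENM2 at P15 is not independent of their choice for a rise there.

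Within the teneurin family, TENM3 led until P7, and TENM2, chosen for its rise at P15, led there. TENM3 made up 66.8 ± 5.48% (SD, n = 4) of the summed teneurin level per kb at P0, with TENM4 at 30.3 ± 5.39% and TENM2 at 2.58 ± 0.93%. At P3, TENM3 held 84.6 ± 1.07%, TENM2 13% ± 1.41 and TENM4 2.41 ± 0.54%, so TENM2 and TENM4 had changed places in every library. At P7, TENM4 was at 16.1 ± 1.59% and TENM2 at 3.88 ± 0.84%. At P15, TENM2 held 83.7 ± 0.37% and TENM3 16.3 ± 0.39%. The summed level was 1.89 ± 0.148 CPM per kb at P0, 1.39 ± 0.078 at P3, 1.29 ± 0.127 at P7 and 21.4 ± 1.38 at P15. The TENM2 share and the summed level at P15 are not independent of the choice of TENM2. These shares rest on 1 transcript length per gene, and with the union of all annotated exons the TENM2 share at P15 was 73.2% and that of TENM3 26.7%.

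**Figure D3:**
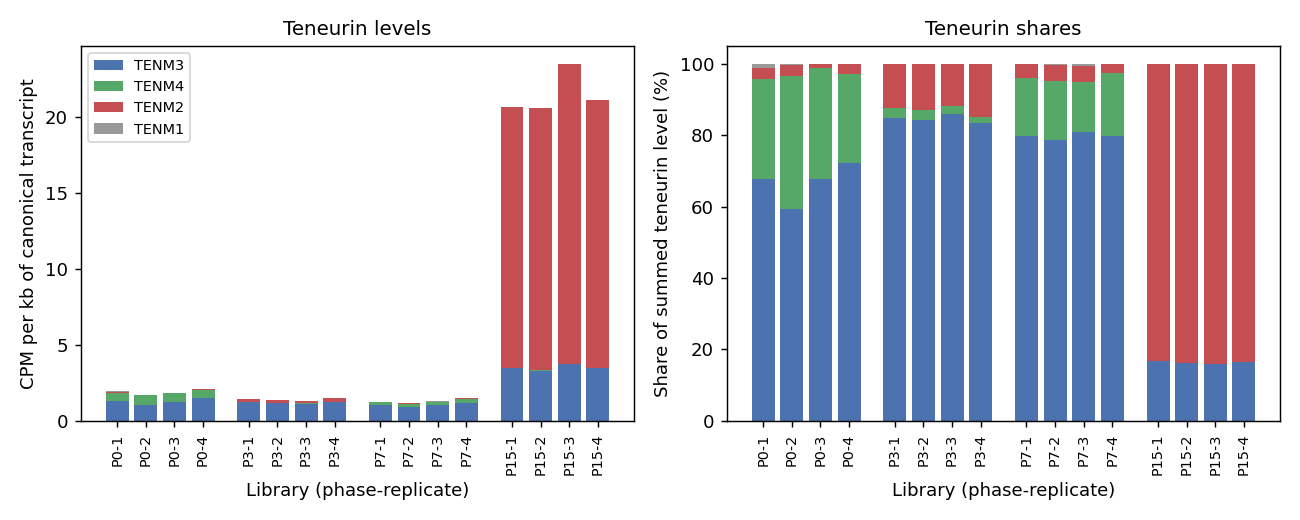
Teneurin levels in CPM per kb of canonical transcript (left) and each teneurin as a percent of their sum (right), 1 stacked bar per library, named by phase and replicate. TENM3 is the largest segment in the 12 libraries of P0, P3 and P7, and TENM2, chosen for its rise at P15, makes up 83.2 to 84.0% of the sum there.

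Of the 10 known teneurin partners, 5 had a mean above 1 CPM. ADGRL1, a latrophilin, fell from P0 to P3 by 1.34 ± 0.06 (adjusted p = 6.3e-15), rose to P7 by 1.23 (adjusted p = 9.5e-14) and rose again to P15 by 1.59 (adjusted p = 2.6e-17), with phase means of 4.40, 3.06, 4.29 and 5.88. ADGRL2 fell at P3 by 1.34 (adjusted p = 2.9e-13), and its later differences of 0.93 and 0.68 stayed below 1. The cell adhesion protein FLRT2 had phase means of 0.40, 0.54, 0.28 and 2.57, and the netrin receptor UNC5B, which also binds FLRT proteins, means of 0.67, 0.80, 0.74 and 1.97. Both passed the filter only through P15, so no test is given for them. Of the other 3 partners, 1 rose and 0 fell for P15 against P7 (13.4% of all genes higher, 12.1% lower), and 2 fell and 0 rose for P3 against P0 (1.95% higher, 2.51% lower). ADGRL3 was at or below a mean of 0.06 in each phase.

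The AMPA receptor subunits GRIA1, GRIA2 and GRIA3 had phase means of at most 0.02 and GRIA4 of at most 0.23, on the log2(CPM + 1) scale, and none was tested. Of the 9 listed relatives and partners in the table, 2 were tested, the innate immune pentraxin PTX3 and the sheddase ADAM17, which can release NPTXR from the membrane, and 0 were called in any step. By limma with an adjusted p below 0.05 alone, both were higher at P15 than at P7, PTX3 by 0.67 (adjusted p = 1.5e-13) and ADAM17 by 0.65 (adjusted p = 8.7e-14).

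The reelin receptors LRP8 and VLDLR were expressed in every phase, LRP8 at phase means of 6.38 to 6.98 and VLDLR at 3.34 to 3.88. Among the 11 reelin receptors and adaptors, 10 were tested and 0 were called by limma in any of the 4 comparisons. By an adjusted p below 0.05 alone, 7 of the 10 differed for P3 against P0 (68.7% of all genes) and 8 for P15 against P7 (86.4% of all genes), so both counts are near the share of all genes. DAB1, the adaptor of canonical reelin signalling, was at a mean of 0.031 CPM and was not tested. Among 5 proteases that cut reelin, 3 were tested. ADAMTS5 fell at P3 by 1.55 (adjusted p = 1.1e-12), PLAT, which encodes tissue plasminogen activator, fell by 1.81 from P3 to P7 (adjusted p = 9.6e-21) and rose at P15 by 1.73 (adjusted p = 5.3e-22). ADAMTS3, the protease best known for inactivating reelin, fell by 2.34 at P15 (adjusted p = 3.3e-19).

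**Figure D4:**
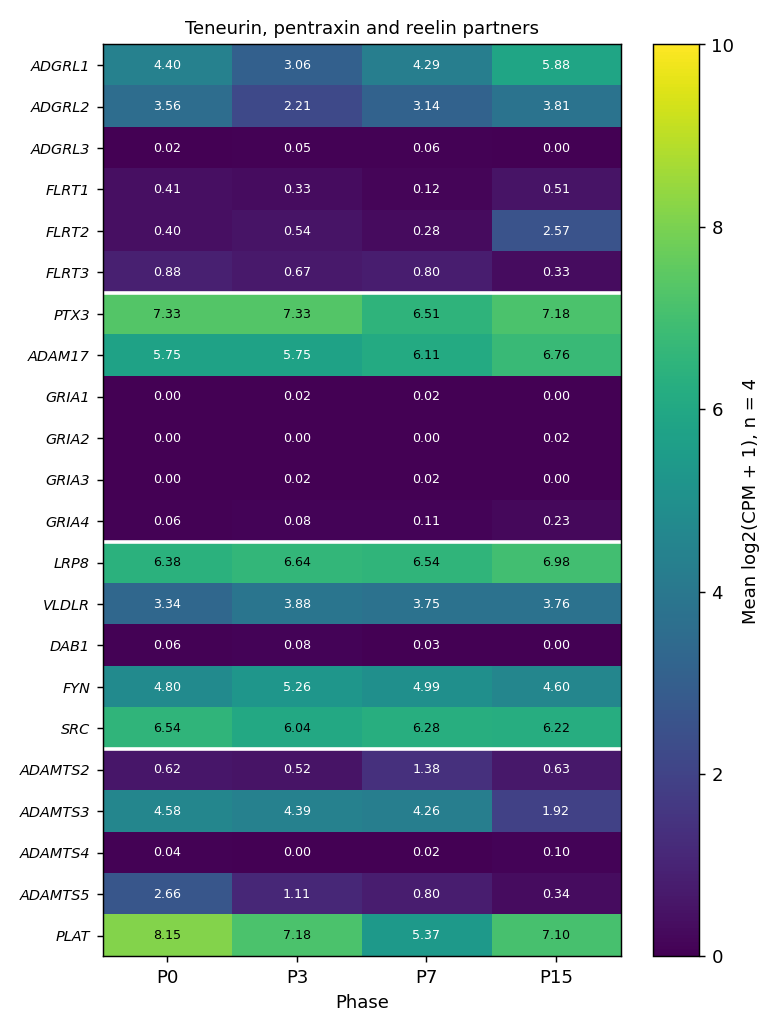
Mean log2(CPM + 1) of 4 libraries (colour and printed value) in each phase (columns) for partners of the teneurins, of the pentraxins and of reelin and for reelin proteases (blocks of rows, top to bottom). ADGRL1 and FLRT2 are highest at P15 (5.88 and 2.57), the 4 AMPA receptor subunits and DAB1 are near 0 in each phase, and ADAMTS3 drops from 4.26 to 1.92.

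Other synaptic organizers, which are adhesion and secreted proteins that align the faces of a synapse, were also tested to place the 8 genes. Of 36 listed, 12 had a mean above 1 CPM, and 3 of these (C1QL4, SLITRK5 and SLITRK6) only through P15. C1QL4, a secreted C1q-like protein, had phase means of 0.37, 0.29, 0.25 and 3.81, given without a test. For P15 against P7, 6 of the other 9 rose and 1 fell, where 13.4% of all genes were higher and 12.1% lower. The receptor phosphatase PTPRS rose by 2.58 (adjusted p = 1.4e-19), whereas CADM1, an adhesion protein that epithelia also use, fell by 6.87 ± 0.05 (adjusted p = 7.8e-33) from a mean of 7.05 to 0.18. SLITRK4, a neuronal transmembrane protein, had fallen at P3 by 1.90 (adjusted p = 7e-16). The neuron markers moved in both directions. Of 19, 5 had a mean above 1 CPM. The synaptic vesicle protein SYP, which passed only through P15, had phase means of 1.03, 0.85, 1.00 and 5.24. Of the other 4, 2 rose and 2 fell for P15 against P7, beside 13.4% and 12.1% of all genes. The adhesion protein NCAM1 rose by 1.31 (adjusted p = 5.4e-18) and the tubulin TUBB3 by 1.04 (adjusted p = 2.2e-09), while the adhesion protein L1CAM fell by 6.14 (adjusted p = 4.7e-34) and the enolase ENO2 by 1.08 (adjusted p = 4.4e-14). ENO2 had risen at P3 by 1.38 (adjusted p = 2.7e-15). The summed level of the 19 markers was 1035.6 to 1080.9 CPM in the P0 libraries, 1136.5 to 1193.9 at P3, 1544.9 to 1654.1 at P7 and 236.0 to 266.9 at P15. Up to P7 most of it was L1CAM and ENO2. At P15, ENO2 (mean log2 value 6.96), NCAM1 (5.98) and SYP (5.24) stood above L1CAM (4.22), and TUBB3 (2.71) below it. RBFOX3, ELAVL3, ELAVL4, STMN2 and DCX, which define neurons, had means of at most 0.068 CPM over the 16 libraries, so these transcripts were near the floor. Other markers below the filter were not all so low. SNAP25 had phase means of 0.14, 0.18, 0.10 and 1.49 and SYN1 of 0.02, 0.09, 0.12 and 0.49, both highest at P15. The remaining untested markers had phase means of at most 0.66.

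**Figure D5:**
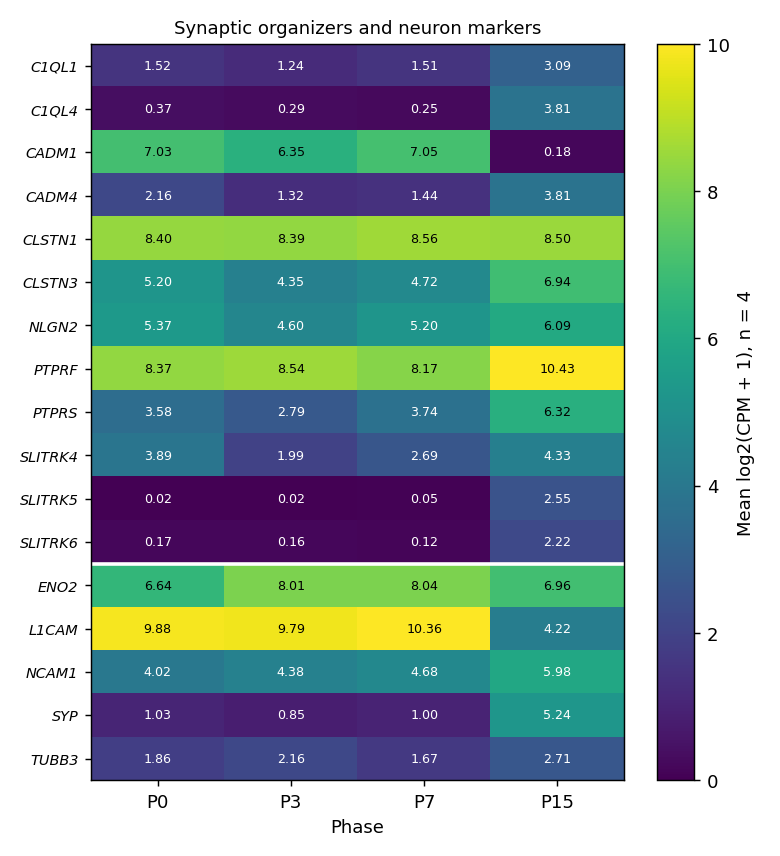
Mean log2(CPM + 1) of 4 libraries (colour and printed value) in each phase (columns) for the 12 synaptic organizers (upper block of rows) and the 5 neuron markers (lower block) above 1 CPM on average. SYP and C1QL4 are highest at P15 (5.24 and 3.81), and CADM1 and L1CAM drop from 7.05 and 10.36 at P7 to 0.18 and 4.22.

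Urothelial markers moved with the same phase. Of 7 tested, 5 fell and 0 rose by the call rule from P7 to P15, beside 12.1% of all genes lower and 13.4% higher, among them the keratins KRT7 (log2 difference -5.60, adjusted p = 3.7e-33) and KRT19 (-3.72, adjusted p = 2.5e-25) and the transcription factor GATA3 (-3.50, adjusted p = 2.9e-23). The keratin KRT18 was 0.48 higher at P15 (adjusted p = 5.9e-12), below the fold threshold. The uroplakin UPK1A, too low on average to be tested, had phase means of 0.10, 0.34, 0.67 and 1.57, highest at P15. KRT19 had already fallen from P3 to P7 by 1.92 (adjusted p = 7.3e-18). COL1A1, a collagen of stromal cells, fell at P3 by 1.12 (adjusted p = 1.1e-12), rose to P7 by 1.16 (adjusted p = 1.9e-12) and rose at P15 by 2.02 (adjusted p = 1.5e-18). The part of these changes in the levels of the 8 genes was not tested.

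Genes with the most similar course were found among all tested genes by the smallest root-mean-square difference of centred log2 values over the 16 libraries. Most of each likeness comes from the distance of P15 from the other phases, and the 4 libraries of a phase are not independent conditions. Closest to NPTX1 were PRAME (0.271, Pearson r = 0.997), CLDN16 (0.331) and CACNG8 (0.389), and closest to TENM2 were PRAME (0.397, r = 0.991), CACNG8 (0.451) and LAT2 (0.472). Since NPTX1 and TENM2 were chosen for their P15 rise, their matches reflect that choice and are descriptions only. Phase means were 0.11, 0.09, 0.07 and 6.65 for PRAME and 0.8, 0.34, 0.57 and 7.77 for CLDN16. They were 0.34, 0.16, 0.07 and 6.54 for CACNG8 and 1.85, 2.42, 1.86 and 7.72 for LAT2. RELN was followed most closely by IFI16 (0.174, r = 0.996), IRAK3 and NTNG1, and NPTXR by KCNAB2 (0.108, r = 0.997), YPEL3 and SAMD14. The nearest genes to TENM4, with a dip at P3, a return at P7 and a second loss, were P2RY6 (0.208, r = 0.986), BRINP2 (0.252) and FAM65C (0.329). TENM3 was nearest to RP5-991G20.1 (0.111, r = 0.987), FAM86B1 (0.114) and P2RX5 (0.12).

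Neighbouring genes on the chromosome moved in both directions. Around each of the 8 genes, the 5 tested protein-coding genes on either side were examined. Over all genes, 25.5% were called for P15 against P7 (13.4% higher, 12.1% lower), so a few called genes among 10 neighbours are near that share. For P15 against P7, 1 of the 10 neighbours of RELN was called (DNAJC2, higher by 1.04, while RELN fell), and 1 of the 10 of NPTXR (APOBEC3G, a cytidine deaminase 233 kb away, log2 difference -5.54). TENM4 had 3 called neighbours, GAB2, KCTD21 and ALG8, with differences of -1.15, -1.34 and -1.15. NPTX1, itself higher, had 3 lower ones (SGSH, CHMP6 and BAIAP2). Beside TENM2, SPDL1 and DOCK2 were lower. TENM3 had VEGFC lower and CEP44 higher, NPTX2 had ASNS higher and BRI3 lower, and TENM1 had XIAP, MCTS1 and APLN lower. Earlier, for P3 against P0 (4.47% of all genes called), APLN was higher and DOCK2, ASNS and APOBEC3G lower. For P7 against P3 (1.84% of all genes called), none of the examined neighbours passed both thresholds.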

How the data were processed

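RNA-sequencing values of 16 libraries (4 each at P0, P3, P7 and P15) were used. The authors aligned the reads to GRCh38 with STAR 2.6.1a, counted them with featureCounts, and deposited CPM on a log2 scale after adding 1, with 2 decimals, for 39007 symbols. The quantile normalization and median centring of the study's methods are not carried by these deposited values. Strand setting, annotation release and handling of multiply mapped reads are not given in the sources used here.

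Counts of a gene were inferred from the step between the smallest values of its library. Intervals on count ratios (exact, 95%) cover counting error only and take each count as independent. At P15 the estimated counts were 2, 0, 2 and 2 for RELN and 2 in each library for TENM4. Such even values can arise when both reads of a pair are counted, and the intervals are then too narrow. The log2 values of the 13249 genes averaging more than 1 CPM were fitted with limma 3.58.1 (R 4.3.3), using all 16 libraries, a coefficient for each phase and a variance trend, and p-values were adjusted by Benjamini-Hochberg over these genes. A gene was called at an adjusted p below 0.05 and an absolute log2 difference of at least 1. The procedure was tested on simulated data. Coordinates and transcript lengths are from GENCODE 44 on GRCh38, and tables and figures were made in Python 3.11.15 with pandas 2.3.3 and matplotlib 3.10.9.

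The members, gene lists and tests were chosen with earlier results of these data known. Named are the 8 genes, up to 3 called genes per list and step (the genes most changed), the 3 genes most alike each tested member, and called neighbours, of which 1 is not reported here. TUBB3, SLITRK5, SLITRK6, KRT18 and list genes named at low or uncalled values were chosen after their values were seen. Genes whose mean over P0, P3 and P7 was at most 1 CPM entered only through P15, and counts over lists leave them out. The fits were repeated with each library left out, with pseudocounts of 0.1 and 5, with other filters or scalings (quantile, equal medians), with a replicate block, without the variance trend, without the fold threshold, and on 2 phases at a time. Replicate numbers are those of the sample descriptions, which differ from the numbers in the titles.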

Additional observations from a re-analysis of the deposited data

Results flagged for a closer look

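In 103 groups of 4 libraries (the named genes in each phase), the lowest or highest library was tested for standing apart from the other 3, and 8 groups were beyond the critical value, where chance gives about 1 in 20, or 5.2. The value given is the gap to the nearest library divided by the range of the group. NPTXR in P15 replicate 4 was low (0.70 against 1.08 to 1.15, value 0.84), and RELN in P0 replicate 2 was low (4.55 against 4.98 to 5.06, value 0.84). ADAMTS5 in P7 replicate 1 was low (0.59 against 0.85 to 0.90, value 0.84), KRT7 in P3 replicate 1 was low (9.97 against 10.02, value 1.0) and GATA3 in P15 replicate 3 was low (1.12 against 1.32 to 1.35, value 0.87). NCAM1 in P7 replicate 3 was high (4.72 against 4.66, value 1.0), KRT19 in P0 replicate 1 was high (6.51 against 6.39 to 6.41, value 0.83) and KRT19 in P15 replicate 2 was high (0.07 against 0, value 1.0). The 8 values fell in 8 different libraries.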

How the results depend on the processing

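Of 576 alternative values for 22 differences of the 6 genes, 553 kept their direction and their side of an adjusted p of 0.05, 8 newly passed it, 13 no longer passed it and 2 changed sign. In many of these settings the direction could not change. Other filters, the replicate block, the variance trend, fits on 2 phases and libraries outside a comparison leave its log2 difference as it was. The 22 include differences of NPTX1 and TENM2 before P15, which are descriptions, so their side of that threshold is not read as a test. Both sign changes were TENM2 at P7 against P0, -0.08 without P0 replicate 3 and -0.01 without P7 replicate 3, beside 0.01, with a range of -0.08 to 0.06 over single libraries left out. The 13 were NPTX1 at P7 against P3 and P0 and RELN at P7 against P0, and the 8 were all TENM3 below 0.25 in size.

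The counts that follow include NPTX1 and TENM2, whose values are descriptions. For P3 against P0, the number called of the 8 genes (2) became 0 with 1 CPM required in all 16 libraries, 1 with a pseudocount of 5, 4 without a fold threshold and 1 to 2 with single libraries left out. Under quantile normalization it stayed 2, but TENM2 (1.03) took the place of RELN (-0.94). For P7 against P3 (1) it became 0, 3 (pseudocount 0.1), 0 (pseudocount 5) and 5, and for P7 against P0 (1) it became 0, 2, 0 and 5. For P15 against P7 (4) and for differences of at least 1 between P15 and P0 (6), the strictest filter left 1, since it removes genes that are low in any library. Over all genes, that filter, pseudocounts of 0.1 and 5 and no fold threshold gave 381, 939, 290 and 9100 for P3 against P0 (592), 139, 445, 106 and 7713 for P7 against P3 (244), and 263, 711, 203 and 8231 for P7 against P0 (447). For P15 against P7 (3377), a pseudocount of 5 gave 2166 and no fold threshold 11452. Leaving out single libraries gave 592 to 614, 239 to 249, 447 to 460 and 3352 to 3382.

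The P15 differences of low genes depend on the pseudocount. Against P0, NPTX1 was 9.94 with 0.1 and 4.86 with 5, TENM2 8.32 and 5.11, RELN -7.75 and -2.76, TENM4 -5.78 and -1.38. Same-numbered libraries did not deviate together (correlations of -0.15 to 0.22 over 24 pairs), and a replicate block left 592, 244, 447 and 3377 called genes. Each phase has 1 library of each number, so the block cannot alter a log2 difference and these counts could hardly move. By the adjusted p alone, 9053 genes passed for P3 against P0 with the block by description number, and 9100 without it. With the block, TENM3 at P7 against P3 was -0.18 (adjusted p = 0.031). The lengths used for teneurin shares were varied after seeing the data, and TENM2 then held 1.42%, 7.41%, 2.12% and 73.2% from P0 to P15. At these depths TENM1 and NPTX2 could not be compared.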
